A study of Mus musculus with 77 samples.

Results

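The genes of the mouse major histocompatibility complex (MHC), named H2 and lying on chromosome 17, were followed across hyperoxia, Trem2 deletion and strain in newborn lung and in macrophages. Members were all genes whose symbol starts with H2-, together with Cd74, Ciita and B2m, which lie on other chromosomes and serve the same pathway. This rule gave 47 of the 24940 genes listed in the expression tables. They comprised 3 classical class I genes (H2-K1, H2-D1 and H2-L), 30 non-classical class I genes or pseudogenes of the H2-Q, H2-T, H2-M and related series, the class I light chain B2m, 5 class II chain genes and 7 class II accessory genes. The last member, H2-Ke6, encodes a hydroxysteroid dehydrogenase and shares only the locus.

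Levels came from poly(A) RNA sequencing. The study exposed Trem2 knockout mice (KO), DBA/2J mice (DBA) and C57BL/6J mice (B6) to 75% oxygen from within a day of birth to postnatal day 14 (hyperoxia), with pups of the same genotypes in room air as controls. Whole perfused lungs gave 4 hyperoxia and 4 room-air libraries of KO, 4 and 4 of DBA, and 3 and 4 of B6. A further B6 set, tested on its own and called set 2, gave 3 hyperoxia and 2 room-air libraries. Bone marrow-derived macrophages (BMDM) of each genotype were kept for 24 h in hyperoxia or room air, with 2 libraries in each of the 6 groups. The labels give 75% oxygen for mice and no oxygen share for the cells, and the column names of all 12 BMDM libraries, room air included, carry the mark invitro95. Both the KO and the DBA mice came from a commercial supplier, and the sources used here do not state the strain background of the KO. Trem2 encodes a lipid-sensing receptor of myeloid cells. The titles number the libraries as replicates without saying which came from separate animals or cultures, so p-values measure only the spread between these libraries, which may be technical.

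Class I molecules pair a polymorphic heavy chain (H2-K1 or H2-D1) with B2m and present peptides from inside the cell on nearly every nucleated cell. Class II molecules pair an alpha with a beta chain (H2-Aa with H2-Ab1, H2-Ea with H2-Eb1), are escorted by the invariant chain Cd74, and are loaded with peptide by H2-DM under control of H2-DO; they are made mainly by B cells, dendritic cells and macrophages, and in the lung also by alveolar type 2 cells. Ciita is the master coactivator of class II genes and acts through factors bound to the conserved X and Y boxes of their promoters, while its relative Nlrc5 acts on class I genes. B6 mice carry the b haplotype of the locus and DBA mice the d haplotype. Mice of the b haplotype make no H2-E alpha chain because the gene's promoter is deleted, and they lack H2-L, whereas mice of the d haplotype have both. The files list the alpha chain gene as H2-Ea-ps.

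Promoter sequences of 3 class II and 2 class I genes with results below are shown to set their conserved boxes side by side. Those of Ciita, H2-Ab1, Cd74 and H2-Ea-ps are not shown. RefSeq promoters of build GRCm38.p6 were found for 33 of the 47 members. The windows below run 5′ to 3′ on the strand of the gene and hold 155 bases around the annotated start, which for H2-Aa lies 52 bases from the start listed in the expression tables and for the other 4 is the same. Capitals mark the X-box-like motif CTNGNAACT and the Y-box-like motif CTGATTGG, or its reverse complement. All sequence is that of the reference genome, which is C57BL/6J, so it holds for B6 and not necessarily for DBA.
H2-Aa, chr17:34287819-34287973, minus strand: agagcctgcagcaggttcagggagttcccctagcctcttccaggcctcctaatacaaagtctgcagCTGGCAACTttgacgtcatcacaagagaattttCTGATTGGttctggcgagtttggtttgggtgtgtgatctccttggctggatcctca
H2-Eb1, chr17:34305717-34305871, plus strand: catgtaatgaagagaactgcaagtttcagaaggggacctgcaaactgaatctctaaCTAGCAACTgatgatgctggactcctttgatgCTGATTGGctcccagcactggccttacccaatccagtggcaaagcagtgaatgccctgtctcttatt
H2-DMb1, chr17:34153041-34153195, plus strand: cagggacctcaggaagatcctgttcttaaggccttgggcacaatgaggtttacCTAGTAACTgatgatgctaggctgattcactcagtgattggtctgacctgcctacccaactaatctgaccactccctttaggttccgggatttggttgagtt
H2-K1, chr17:34000329-34000483, minus strand: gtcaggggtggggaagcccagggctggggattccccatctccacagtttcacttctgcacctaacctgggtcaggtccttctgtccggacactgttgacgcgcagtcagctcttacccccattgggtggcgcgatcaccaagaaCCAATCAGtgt
H2-D1, chr17:35262944-35263098, plus strand: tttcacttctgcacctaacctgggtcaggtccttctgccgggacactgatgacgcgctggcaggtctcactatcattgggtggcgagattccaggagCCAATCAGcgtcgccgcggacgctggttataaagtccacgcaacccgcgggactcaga
H2-Aa and H2-Eb1, which encode a class II alpha and a class II beta chain, carried both motifs in the order X then Y. H2-DMb1, a chain of the peptide exchanger, carried the X motif, and H2-K1 and H2-D1 carried the Y motif in reverse. Searched on both strands of the 300-base promoters, the X motif was present in 5 members, the 3 class II genes above and the class I genes H2-T3 and H2-M3, and the Y motif in 18 members of both classes, against 4.1% and 4.097% of 32851 promoters. Both motifs together were present in 2 members, H2-Aa and H2-Eb1, and in 0.164% of all promoters. The motifs do not overlap each other, were chosen after these promoters had been read, and are letter matches rather than measured binding sites.

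Expression is given as TPM (a level per library scaled to a fixed total and already divided by transcript length), and differences are on the log2(TPM + 1) scale with their standard error (SE). Low values shrink towards 0 on this scale. Estimated depth was 12.5 to 41.1 M reads per library in the lungs, 7.08 to 8.04 M in set 2 and 14.6 to 47.0 M in BMDM (M for 10 to the power 6). A gene entered the test where at least n libraries reached 1 TPM, n being the size of the smallest group, and this kept 35 members in the table of KO and B6 lungs, 36 in that of DBA and B6 lungs, 31 in set 2 and 34 in BMDM. A further 6, 7, 10 and 7 members were at 0 in all libraries of these tables, mostly the H2-M1, H2-M10 and H2-M11 genes, a family known from the vomeronasal organ. The other members that were not tested lay below the filter. The 7 B6 lung libraries are the same in both lung tables, so the comparisons of KO and of DBA with B6 share their controls. Trem2 read 1.96 to 2.67 TPM in KO hyperoxia lungs against 5.97 to 9.85 TPM in B6 hyperoxia lungs, and 236 to 239 TPM in KO against 948 to 962 TPM in B6 room-air BMDM. In room air the lung levels of Trem2 overlapped, with 1.05 to 2.75 TPM in KO and 2.14 to 3.73 TPM in B6.

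Several members may share reads. The listed transcripts of H2-L, H2-Q6, H2-Q9 and H2-T9 lie wholly inside the spans of H2-D1, H2-Q8, H2-Q7 and H2-T22 on the same strand, and how many reads each pair shares was not measured. H2-D1 and H2-L moved apart in DBA lungs. The class I genes are also close copies of each other, and the sources used here do not say how reads that match several copies were counted. Reads of DBA, whose alleles differ from the reference, were aligned to the B6-derived genome. A strain difference in a class I or class II gene can therefore be one of allele, of gene copy, of alignment or of RNA level, and these cannot be told apart here.

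In B6 lungs most class II genes fell in hyperoxia. All 3 tested class II chains, the invariant chain Cd74, the coactivator Ciita and 4 of 5 H2-DM and H2-DO genes were lower, while H2-K1, H2-D1 and B2m did not pass the test. Of the 35 members tested 14 were lower and 0 higher. Among all genes tested 26% were lower and 16.6% higher. The median log2 difference was -0.44 over the members and -0.074 over all genes tested.

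Ciita had 0.766, 0.886 and 1.25 TPM in hyperoxia and 4.36, 4.64, 4.02 and 4.13 TPM in room air (log2 fold change -1.43 ± 0.123 SE, adjusted p = 6.12e-07). H2-Ab1, the A beta chain, had 77.5, 62.4 and 66.8 TPM in hyperoxia and 120.3, 157, 190.4 and 129 TPM in room air (log2 fold change -1.09 ± 0.172 SE, adjusted p = 0.000141). Every hyperoxia library lay below every room-air library for both genes. H2-Eb1, the E beta chain, had 56.1, 52.2 and 53.9 TPM in hyperoxia and 84.5, 105, 137 and 95.3 TPM in room air (log2 fold change -0.93 ± 0.166 SE, adjusted p = 0.000377). H2-Aa, the A alpha chain, had 138, 145 and 168 TPM in hyperoxia and 194, 272, 304 and 221 TPM in room air (log2 fold change -0.70 ± 0.166 SE, adjusted p = 0.00308). Its groups did not overlap either, and its call was lost in 1 of 14 alternative settings. Cd74, the most abundant class II gene of the lungs, had 405, 364 and 325 TPM in hyperoxia and 573, 674, 782 and 613 TPM in room air (log2 fold change -0.85 ± 0.136 SE, adjusted p = 0.000147).

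Most of the genes that edit the peptides of class II molecules fell as well. H2-Ob, the beta chain of H2-DO and a gene of B cells, had 1.44, 1.5 and 1.33 TPM in hyperoxia and 5.27, 7.54, 7.78 and 6.44 TPM in room air (log2 fold change -1.67 ± 0.133 SE, adjusted p = 3.05e-07). This was the member with the greatest fall. H2-DMa had 6.01, 6.88 and 6.91 TPM in hyperoxia and 10.5, 12.7, 14.2 and 9.45 TPM in room air (log2 fold change -0.73 ± 0.153 SE, adjusted p = 0.00136), H2-DMb1 13.6, 14.2 and 15.9 TPM and 22.7, 23.1, 27.4 and 20.4 TPM (log2 fold change -0.64 ± 0.15 SE, adjusted p = 0.00281). H2-DMb2, a copy of the DM beta chain gene, had 1.85, 2.56 and 3.21 TPM in hyperoxia and 4.57, 7.58, 8.24 and 6.43 TPM in room air (log2 fold change -1.12 ± 0.229 SE, adjusted p = 0.00113). H2-Oa, the alpha chain of H2-DO, had 2.29, 1.02 and 1.78 TPM in hyperoxia and 1.84, 3.64, 3.83 and 1.62 TPM in room air and did not pass (adjusted p = 0.27); its groups overlapped.

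Class I was mixed in B6 lungs. H2-K1 had 205, 163 and 158 TPM in hyperoxia and 139.6, 185, 229 and 202 TPM in room air, and H2-D1 had 255, 249 and 214 TPM and 211, 255, 299 and 266 TPM, with adjusted p of 0.656 and 0.601. B2m had 353, 388 and 553 TPM in hyperoxia and 391, 502, 721 and 618 TPM in room air (adjusted p = 0.128). The groups of all 3 genes overlapped. Among the 20 non-classical genes tested, 4 were lower, where 26% of all genes tested were lower. H2-Q7, which encodes the Qa-2 molecule, had 2.75, 1.56 and 2.55 TPM in hyperoxia and 3.86, 5.33, 7.36 and 6.31 TPM in room air (log2 fold change -1.02, adjusted p = 0.00927); H2-Q9 overlaps it. H2-T24 had 4.15, 4.11 and 4.38 TPM in hyperoxia and 8.14, 11.4, 15.5 and 12.2 TPM in room air (log2 fold change -1.27, adjusted p = 3.59e-05), and H2-K2 had 2.00, 2.14 and 1.54 TPM and 2.90, 3.37, 3.65 and 3.94 TPM (log2 fold change -0.63, adjusted p = 0.00184). H2-Ke6, the dehydrogenase gene, also fell (25.7, 19.2 and 27.2 TPM in hyperoxia and 29.8, 34.0, 29.9 and 32.1 TPM in room air, log2 fold change -0.39, adjusted p = 0.00929).

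Partners of both pathways moved in part. Of 8 class I loading genes 6 were lower and 0 higher, led by the chaperone Calr (-1.30), and of 5 immunoproteasome genes 4 were lower, led by Psmb9 (-0.96). Of 13 interferon and class I transactivation genes 6 were lower and 2 higher; Socs1 (-1.48) fell furthest. Of 7 factors that act on the class II promoter 3 were lower, with Nfya, a subunit of the Y-box factor, at -1.58. The class II processing enzymes went the other way, with 5 of 7 higher and 0 lower. All values in parentheses are log2 fold changes with adjusted p below 0.05.

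Some cell-type markers moved with these results, and their part in them was not tested. Macrophage and monocyte markers are not given for the KO, DBA and first B6 lungs. All 6 B cell markers fell, and their summed level was 25.0 to 32.8 TPM in hyperoxia against 71.4 to 111 TPM in room air. The 3 general leukocyte markers also fell, with sums of 52.7 to 67.5 TPM in hyperoxia and 97.8 to 117 TPM in room air. Of 8 dendritic cell markers 3 fell and 1 rose, with overlapping sums of 48.8 to 64.9 TPM and 54.9 to 61.6 TPM. Of 5 alveolar type 2 cell markers 1 fell, with overlapping sums of 21212 to 25699 TPM in hyperoxia and 20334 to 31497 TPM in room air. No marker of these lists was at 0 throughout a lung group. In whole lung, fewer cells of a type and less RNA per cell cannot be told apart. Of the B6 libraries, all 3 in hyperoxia and 2 in room air carry the same date code in their column names, and the other 2 in room air carry a later code and are marked female. In hyperoxia 1 B6 library is marked female. All KO and DBA lung libraries are marked male, so the sex marks differ between genotypes as well.

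**Figure D1:**
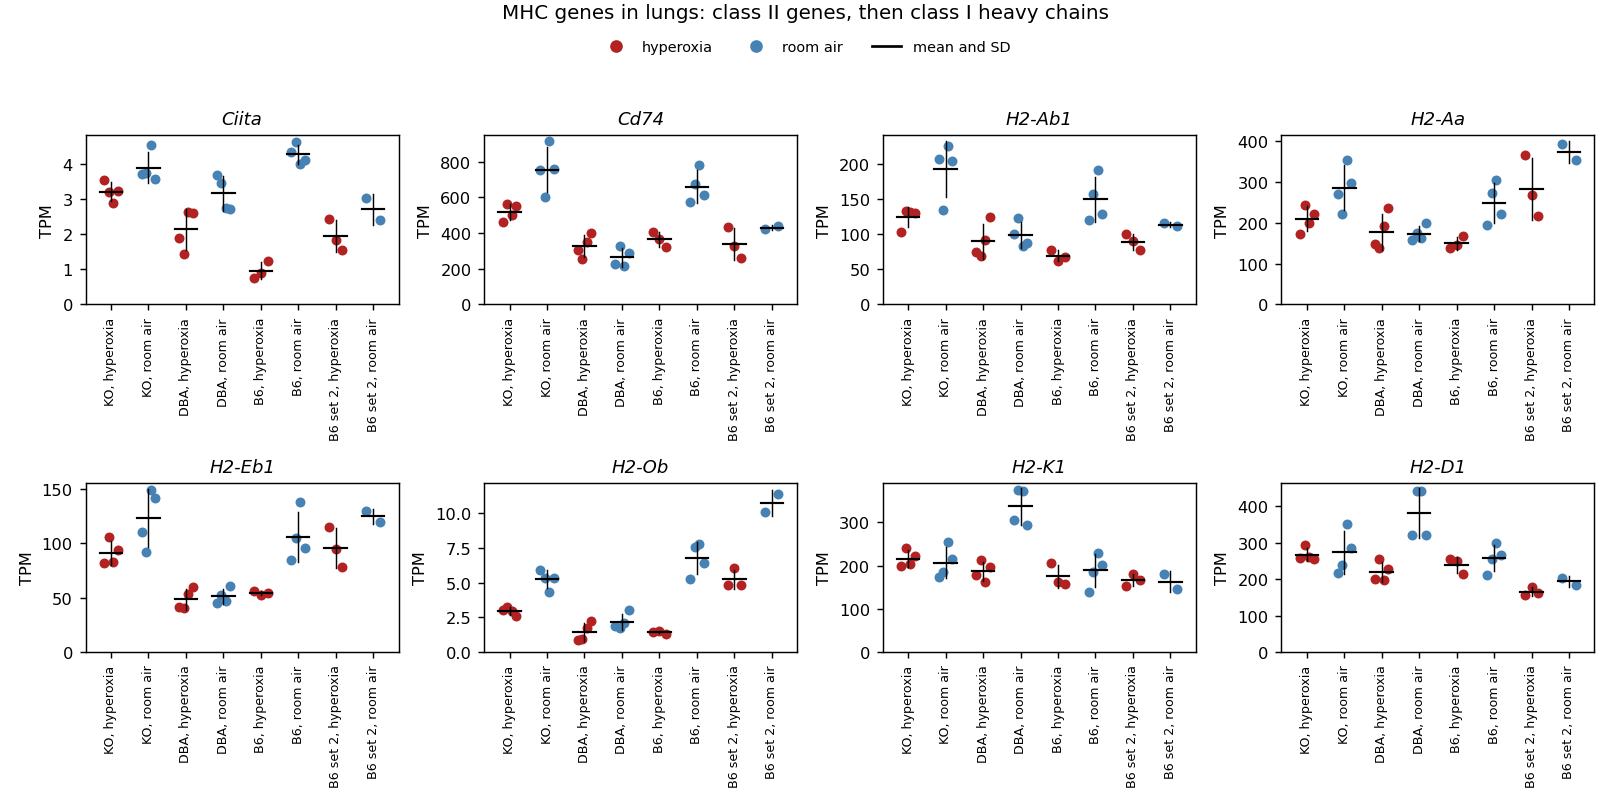
Levels of 8 MHC genes in lung, in TPM, 1 panel per gene; points are libraries, coloured by exposure, and black lines show the group mean and SD for KO, DBA, B6 and B6 set 2 with hyperoxia left of room air. In B6 lungs Ciita lay between 0.766 and 1.25 TPM in hyperoxia and between 4.02 and 4.64 TPM in room air, and in DBA lungs H2-K1 lay between 162 and 213 TPM in hyperoxia and between 295 and 376 TPM in room air.

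Fewer class II genes passed the test in KO lungs in hyperoxia. Of 35 members tested 5 were lower and 0 higher, where 9.11% of all genes tested were lower and 10.6% higher. The median log2 difference was -0.21 over the members and 0.0053 over all genes. Of the class II chains H2-Ab1 alone passed, with 103, 133, 131 and 129.5 TPM in hyperoxia and 207, 135, 224 and 203 TPM in room air (log2 fold change -0.61 ± 0.160 SE, adjusted p = 0.0151). The lowest room-air library was just above the highest hyperoxia library. Cd74 had 459, 561, 502 and 550.4 TPM in hyperoxia and 752, 601, 913 and 756 TPM in room air (log2 fold change -0.53 ± 0.126 SE, adjusted p = 0.00849), again without overlap. Ciita had 3.55, 3.20, 2.91 and 3.23 TPM in hyperoxia and 3.73, 3.75, 4.56 and 3.58 TPM in room air, which did not pass (log2 fold change -0.21, adjusted p = 0.201).

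H2-Ob had 3.03, 3.25, 2.98 and 2.60 TPM in hyperoxia and 5.93, 5.35, 4.36 and 5.33 TPM in room air (log2 fold change -0.65 ± 0.123 SE, adjusted p = 0.00212). H2-K2 had 2.29, 1.63, 2.10 and 2.13 TPM and 3.11, 3.92, 4.13 and 4.18 TPM (log2 fold change -0.67 ± 0.127 SE, adjusted p = 0.00225), and both genes had groups that did not overlap. H2-DMb2 had 2.70, 2.94, 4.74 and 6.54 TPM in hyperoxia and 6.78, 7.04, 7.65 and 6.09 TPM in room air (log2 fold change -0.65, adjusted p = 0.0415), with overlap, and this call was lost in 10 of 15 alternative settings. H2-Aa had 172, 243, 199 and 222 TPM in hyperoxia and 269, 222, 353 and 297 TPM in room air, and H2-Eb1 had 81.4, 105, 83.0 and 93.8 TPM and 110.3, 91.6, 149 and 142 TPM, with adjusted p of 0.0562 and 0.0689. H2-K1 had 199, 241, 204 and 222 TPM in hyperoxia and 173, 184, 254 and 215 TPM in room air, and H2-D1 had 257, 293, 262 and 256 TPM and 218, 239, 353 and 284 TPM. B2m had 583, 741, 684 and 604 TPM in hyperoxia and 636, 531, 663 and 631 TPM in room air. None of these 3 passed (adjusted p = 0.75, 0.959 and 0.765). Of 8 class I loading and 5 immunoproteasome genes 0 were called in KO lungs, and 4 of 13 interferon genes were lower, among them Irf1 (log2 fold change -0.44). The B cell markers summed to 35.5 to 52.6 TPM in hyperoxia and 58.6 to 74.9 TPM in room air, and 2 of 6 fell. Without the filter on low values 3 members were called rather than 5.

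KO and B6 lungs were not separated in room air, where 0 members passed in limma, 2 had an unadjusted p below 0.05, and 0.0512% of all genes were higher and 0.0256% lower in KO. In hyperoxia 13 members were higher in KO than in B6 and 1, H2-Q2, was lower (5.21, 6.48, 4.74 and 7.48 TPM in KO and 9.20, 7.04 and 10.9 TPM in B6, log2 fold change -0.52, adjusted p = 0.0455). Its groups overlapped, and its call was lost in 8 of 13 alternative settings, as was that of H2-Aa in 7. Of all genes tested 22% were higher and 15.2% lower in KO. The higher ones were all 3 tested class II chains, 5 of 7 class II accessory genes, B2m, H2-Ke6, H2-T24 and the overlapping pair H2-Q7 and H2-Q9. Ciita stood at 3.55, 3.20, 2.91 and 3.23 TPM in KO and 0.766, 0.886 and 1.25 TPM in B6 (log2 fold change 1.11 ± 0.123 SE, adjusted p = 9.21e-06), and H2-Ab1 at 103, 133, 131 and 129.5 TPM and 77.5, 62.4 and 66.8 TPM (log2 fold change 0.84 ± 0.172 SE, adjusted p = 0.00144). Neither gene overlapped between the genotypes. H2-DMa had 11.2, 14.1, 10.9 and 11 TPM in KO and 6.01, 6.88 and 6.91 TPM in B6 (log2 fold change 0.75, adjusted p = 0.00145), and H2-DMb1 had 20.7, 31.4, 22.3 and 24.8 TPM and 13.6, 14.2 and 15.9 TPM (log2 fold change 0.71, adjusted p = 0.00167). B2m had 583, 741, 684 and 604 TPM in KO and 353, 388 and 553 TPM in B6 (log2 fold change 0.62, adjusted p = 0.0154). H2-Q7 had 2.89, 4.99, 6.23 and 6.97 TPM in KO and 2.75, 1.56 and 2.55 TPM in B6 (log2 fold change 0.90, adjusted p = 0.0215), and H2-T24 had 6.35, 7.66, 10.0 and 7.14 TPM and 4.15, 4.11 and 4.38 TPM (log2 fold change 0.74, adjusted p = 0.00359).

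The date codes in the column names limit this comparison. All KO hyperoxia libraries carry 1 code and all B6 hyperoxia libraries another. With the date code as a term in the fit only 2 members were called, 1 of them among the 14, namely Ciita (log2 fold change 1.13, adjusted p = 0.0184), and B2m, H2-Aa, H2-Eb1, H2-Q7 and H2-Q9 changed sign. Without the second of the 3 B6 hyperoxia libraries, in the order the values are given, there were 9 calls.

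The difference between the responses to oxygen, tested as an interaction, was positive for 4 members and negative for 0, so that hyperoxia minus room air was lower in B6 than in KO. In KO lungs H2-Ob alone of them fell, and H2-DMb1 had a log2 fold change of 0.056 there (adjusted p = 0.811). Of all genes tested 16.4% had a positive and 8.98% a negative interaction, and 12.0% higher and 11.6% lower after quantile normalization. The 4 were Ciita (log2 fold change 1.22 ± 0.167 SE, adjusted p = 0.000135), H2-Ob (log2 fold change 1.02 ± 0.181 SE, adjusted p = 0.000949), H2-T24 (log2 fold change 0.84 ± 0.235 SE, adjusted p = 0.0158) and H2-DMb1 (log2 fold change 0.70 ± 0.204 SE, adjusted p = 0.0202). Ciita and H2-Ob passed in all 20 alternative settings. H2-T24 and H2-DMb1 each lost their call in 3, and 2 members were left with date code as a term or with male libraries alone. The class II chains did not pass as interactions (adjusted p = 0.152 for H2-Ab1, 0.11 for H2-Eb1 and 0.423 for H2-Aa). Of the partner genes Socs1 (1.63), Nfya (1.35) and Calr (1.27) had the greatest positive interactions on the log2 scale, and 4 of 6 B cell markers had a positive one.

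In DBA lungs 2 of 3 classical and 9 of 20 non-classical class I genes fell in hyperoxia, and the class II chains did not pass the test. Of 36 members tested 13 were lower and 0 higher, where 12.4% of all genes tested were lower and 18.6% higher. Among the lower non-classical genes is H2-T3, which passed the filter on low values only through the room-air libraries. Without the members that passed in this way, 12 of 34 were lower and 0 higher. The median log2 difference was -0.36 over the members and 0.046 over all genes. H2-K1 had 178, 213, 162 and 196 TPM in hyperoxia and 305, 376, 372 and 295 TPM in room air (log2 fold change -0.84 ± 0.145 SE, adjusted p = 0.000654). H2-D1 had 200.1, 254, 198 and 228 TPM in hyperoxia and 320.1, 441, 441 and 322 TPM in room air (log2 fold change -0.78 ± 0.135 SE, adjusted p = 0.0007). Neither gene's groups overlapped. H2-L had 128, 153, 125 and 127 TPM in hyperoxia and 145, 244, 128 and 101 TPM in room air, with overlap, and did not pass (log2 fold change -0.14, adjusted p = 0.622). B2m, the partner chain, had 419.5, 559, 506 and 540.0 TPM in hyperoxia and 479.7, 835, 616 and 513 TPM in room air and did not pass (adjusted p = 0.383).

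Qa genes led the non-classical ones. H2-Q7 had 2.42, 4.33, 2.51 and 3.46 TPM in hyperoxia and 6.00, 12.4, 11 and 7.12 TPM in room air (log2 fold change -1.25 ± 0.229 SE, adjusted p = 0.00102), and H2-Q9 overlaps it. H2-Q4 had 59.2, 78.1, 52.8 and 57.2 TPM in hyperoxia and 98.8, 125, 94.8 and 84.2 TPM in room air (log2 fold change -0.70 ± 0.149 SE, adjusted p = 0.0029), and H2-Q1 had 2.67, 3.13, 2.50 and 3.48 TPM and 4.13, 5.88, 5.42 and 3.68 TPM (log2 fold change -0.54 ± 0.15 SE, adjusted p = 0.0137). The groups of these genes did not overlap. The pseudogene H2-T-ps had 3.30, 3.89, 3.48 and 4.82 TPM in hyperoxia and 7.21, 6.47, 6.50 and 6.72 TPM in room air (log2 fold change -0.67, adjusted p = 0.00157). H2-T22, a ligand of gamma delta T cells, had 17.2, 21.1, 16.4 and 22.3 TPM in hyperoxia and 24.6, 24.6, 31.0 and 23.9 TPM in room air (log2 fold change -0.42, adjusted p = 0.0162), and the overlapping H2-T9 also fell (log2 fold change -0.33). H2-T3, the thymus leukaemia antigen, had 0.952, 0.988, 1.43 and 1.28 TPM and 2.55, 1.95, 1.86 and 2.44 TPM, and H2-M5 had 1.36, 2.29, 1.63 and 1.01 TPM and 2.56, 3.12, 2.51 and 3.92 TPM (adjusted p = 0.0434 for H2-M5). Each call was lost in 11 of 16 alternative settings, and H2-T3 passed the filter on low values only through the room-air libraries, so its difference is given without a p. H2-Ke6 had 41.4, 35.6, 37.8 and 42.0 TPM in hyperoxia and 52.1, 46.8, 55.0 and 50.0 TPM in room air (log2 fold change -0.37, adjusted p = 0.0114).

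The class II chains overlapped between exposures in DBA lungs. H2-Ab1 had 74.7, 68.9, 91.3 and 124 TPM in hyperoxia and 99.7, 123, 82.5 and 87.4 TPM in room air (adjusted p = 0.556), H2-Aa 147, 137, 191 and 235 TPM and 158, 175, 161 and 199 TPM (adjusted p = 0.976). H2-Eb1 had 41.1, 40.0, 53.4 and 59.8 TPM in hyperoxia and 44.5, 52.6, 47.1 and 60.3 TPM in room air (adjusted p = 0.706). Cd74 had 304, 255, 347 and 400.1 TPM in hyperoxia and 225, 329.7, 217 and 287 TPM in room air (adjusted p = 0.155). Ciita was lower, with 1.90, 1.43, 2.64 and 2.61 TPM in hyperoxia and 3.71, 3.46, 2.76 and 2.73 TPM in room air (log2 fold change -0.42, adjusted p = 0.0434), and lost its call in 11 of 16 settings. Nlrc5, the class I coactivator, had the greatest fall among the partner genes (log2 fold change -1.26, adjusted p = 0.00181), followed by Stat2 (-0.84) and Irf1 (-0.69) on the same scale; 5 of 13 interferon genes fell and 1 rose. Of 8 class I loading and 5 immunoproteasome genes 0 were called. The B cell markers summed to 23.3 to 37.5 TPM in hyperoxia and 31.1 to 40.5 TPM in room air, with 2 of 6 lower. All 5 alveolar type 2 cell markers rose, with sums of 13036 to 25720.1 TPM in hyperoxia and 7072 to 11941 TPM in room air; the part of either in the result was not tested. Each DBA exposure group holds 2 libraries of each of 2 date codes. Within the later code alone 6 members were called, and within the earlier code alone 0, with 18 at an unadjusted p below 0.05.

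Tested directly, the oxygen response of DBA lungs differed from that of B6 lungs in 11 of 36 members, a share near that of all genes tested. The interaction was positive for 7 members and negative for 4, where 20% of all genes tested were positive and 9.2% negative (14.8% higher and 13.1% lower after quantile normalization; the median log2 difference of all genes was 0.11 before it and -0.0031 after it). Class II genes made up most of the positive ones: Cd74 (log2 fold change 1.16 ± 0.231 SE, adjusted p = 0.00232), H2-Ab1 (log2 fold change 0.93 ± 0.267 SE, adjusted p = 0.0168), H2-Eb1 (log2 fold change 0.85 ± 0.221 SE, adjusted p = 0.0104) and H2-Aa (log2 fold change 0.71 ± 0.242 SE, adjusted p = 0.0379), with Ciita (log2 fold change 1.01 ± 0.219 SE, adjusted p = 0.00357) and H2-Ob (log2 fold change 1.27 ± 0.274 SE, adjusted p = 0.00364). The non-classical H2-T24 was the other positive one (log2 fold change 1.02 ± 0.301 SE, adjusted p = 0.0201). The negative ones were class I genes, namely H2-K1 (log2 fold change -0.75 ± 0.213 SE, adjusted p = 0.0167), H2-D1 (log2 fold change -0.68 ± 0.199 SE, adjusted p = 0.0192), H2-Q4 (log2 fold change -0.69 ± 0.219 SE, adjusted p = 0.0282) and H2-T-ps (log2 fold change -0.65). H2-T-ps would not have passed the filter on low values without DBA, so its value is given without a p. Without the members that passed through 1 strain alone, 7 of 30 were positive and 3 negative. In the separate exposure contrasts the class II chains and Cd74 passed in B6 lungs and did not pass in DBA lungs, H2-K1 and H2-D1 passed in DBA and did not pass in B6, and Ciita fell in both strains. With male libraries alone 6 interactions were called. H2-Aa lost its call in 11 of 20 alternative settings and H2-Q4 in 8, whereas Cd74, Ciita, H2-Ob and H2-D1 kept theirs in all 20. Of the 6 B cell markers 5 had a positive interaction, and Socs1 (1.84) and Calr (1.41) led the partner genes on the log2 scale.

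Set 2, the further B6 lungs, was tested in its own table and called few members. Of 31 tested 2 were lower and 0 higher, where 1.81% of all genes tested were lower and 3.13% higher. The median log2 difference was -0.20 over the members and 0.008 over all genes. H2-Ob had 4.83, 6.05 and 4.83 TPM in hyperoxia and 10.1 and 11.4 TPM in room air (log2 fold change -0.92 ± 0.163 SE, adjusted p = 0.0174), and H2-K2 had 2.47, 1.82 and 2.84 TPM and 4.98 and 5.39 TPM (log2 fold change -0.88 ± 0.201 SE, adjusted p = 0.041). Both had groups that did not overlap, and both were also lower in the first B6 lungs. Leaving out any 1 of the 5 libraries left 0 or 1 call, and none was left without the filter on low values. Ciita had 2.44, 1.85 and 1.56 TPM in hyperoxia and 3.03 and 2.41 TPM in room air (adjusted p = 0.418), with overlap. H2-Ab1 had 99.8, 90.4 and 76.9 TPM in hyperoxia and 116 and 111 TPM in room air (log2 fold change -0.35, adjusted p = 0.172). Cd74 had 433, 326 and 259 TPM and 421 and 439 TPM (adjusted p = 0.317). H2-Aa had 365, 266 and 215 TPM in hyperoxia and 392 and 354 TPM in room air (adjusted p = 0.254). H2-Eb1 had 115, 94.6 and 77.8 TPM and 129.6 and 119.5 TPM (adjusted p = 0.205). H2-Ab1 and H2-Eb1 did not overlap between exposures, and 10 members had an unadjusted p below 0.05. H2-K1 had 154, 179.8 and 165 TPM in hyperoxia and 179.7 and 145 TPM in room air, H2-D1 156, 179 and 163 TPM and 204 and 183 TPM, and B2m 1123, 911 and 815 TPM and 925 and 801 TPM, none of which passed. Of the 6 B cell markers 4 fell, with sums of 65.2 to 75.1 TPM in hyperoxia and 133 to 136 TPM in room air, and their part in the result was not tested.

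**Figure D2:**
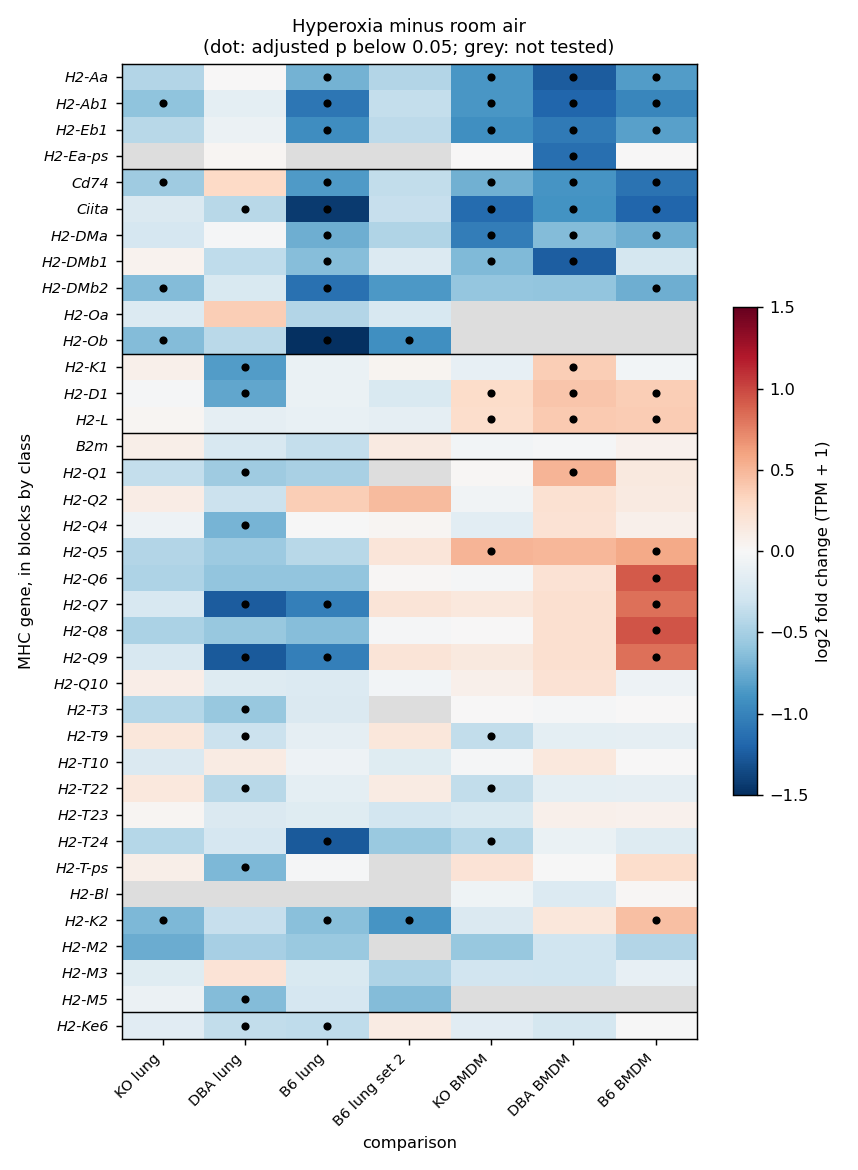
Heat map of the log2 fold change of (TPM + 1), hyperoxia minus room air, for every member tested in at least 1 table (rows, in blocks by class) in 7 comparisons (columns); red is higher and blue lower in hyperoxia, a dot marks adjusted p below 0.05, grey marks genes not tested, and values beyond the scale take its end colour. Most class II rows are blue with dots in B6 lung and in all 3 BMDM columns, and most class I rows are blue in DBA lung.

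In room air non-classical class I genes were mostly higher and most class II genes lower in DBA than in B6 lungs. Of 36 members tested 18 were higher and 8 lower in DBA in room air, where 21.5% of all genes tested were higher and 34.8% lower. In hyperoxia 14 were higher and 2 lower, where 23.3% of all genes were higher and 22.8% lower. The median log2 differences were 0.40 over the members and -0.12 over all genes in room air, and 0.26 and 0.017 in hyperoxia. Of the 36, H2-Ea-ps, H2-Q1, H2-Q10, H2-T-ps and H2-T3 would not have passed the filter on low values without the DBA libraries, nor H2-M2 without the B6 libraries, so their strain differences are described without a p; of the other 30, 13 were higher and 8 lower in room air, and 9 and 2 in hyperoxia. Quantile normalization left the median of all genes in room air at -0.022. Every DBA library carries a date code that no B6 library has, so strain and date code cannot be told apart in these contrasts. The alveolar type 2 cell markers summed to 7072 to 11941 TPM in DBA and 20334 to 31497 TPM in B6 in room air, with 4 of 5 lower, and the B cell markers to 31.1 to 40.5 TPM and 71.4 to 111 TPM, with 5 of 6 lower. Their part in the class II differences was not tested.

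H2-Ea-ps had a level in DBA and was at or near 0 in the others. It had 91.5, 102, 152 and 179 TPM in DBA hyperoxia lungs and 108, 138, 122 and 129 TPM in DBA room-air lungs, whereas it was listed at 0 in all 3 B6 hyperoxia lungs and at 0, 0, 0.0670 and 0.0800 TPM in B6 room-air lungs. KO lungs were at 0 in hyperoxia and at 0, 0.511, 0 and 0.488 TPM in room air, near the B6 values. Its partner chain H2-Eb1 was lower in DBA in room air (44.5, 52.6, 47.1 and 60.3 TPM in DBA and 84.5, 105, 137 and 95.3 TPM in B6, log2 fold change -1.02 ± 0.15 SE, adjusted p = 4.37e-05). The strain difference passed in room air also for Cd74 (225, 329.7, 217 and 287 TPM in DBA and 573, 674, 782 and 613 TPM in B6, log2 fold change -1.33 ± 0.157 SE, adjusted p = 6.07e-06) and H2-Ab1 (99.7, 123, 82.5 and 87.4 TPM and 120.3, 157, 190.4 and 129 TPM, log2 fold change -0.59 ± 0.181 SE, adjusted p = 0.0118). H2-Aa (-0.50), H2-Ob (-1.30), H2-Oa (-1.10) and H2-DMb2 (-0.83) were likewise lower in DBA on the log2 scale. The call of H2-DMb2 was lost in 6 of 13 alternative settings. In hyperoxia none of these 7 genes passed; Ciita (1.90, 1.43, 2.64 and 2.61 TPM in DBA and 0.766, 0.886 and 1.25 TPM in B6, log2 fold change 0.67 ± 0.160 SE, adjusted p = 0.00331) and H2-DMa (9.49, 8.78, 10.2 and 12.3 TPM and 6.01, 6.88 and 6.91 TPM, log2 fold change 0.55 ± 0.201 SE, adjusted p = 0.0354) were higher in DBA, a call H2-DMa lost in 8 of 12 alternative settings.

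The classical class I genes split by gene. In room air H2-K1 had 305, 376, 372 and 295 TPM in DBA and 139.6, 185, 229 and 202 TPM in B6 (log2 fold change 0.84 ± 0.145 SE, adjusted p = 0.000172), and H2-D1 had 320.1, 441, 441 and 322 TPM and 211, 255, 299 and 266 TPM (log2 fold change 0.55 ± 0.135 SE, adjusted p = 0.00274). H2-L, whose listed transcript lies inside H2-D1, went the other way, with 145, 244, 128 and 101 TPM in DBA and 230.2, 278, 331 and 287 TPM in B6 (log2 fold change -0.93 ± 0.195 SE, adjusted p = 0.000867). It was lower in DBA in hyperoxia too, with 128, 153, 125 and 127 TPM in DBA and 266, 269 and 242 TPM in B6 (log2 fold change -0.96, adjusted p = 0.00172). B6 mice lack an H2-L gene, so the B6 value comes from reads of other genes. In hyperoxia neither H2-K1 nor H2-D1 passed (adjusted p = 0.641 and 0.509). B2m passed in neither exposure (adjusted p = 0.596 in room air and 0.379 in hyperoxia).

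Non-classical class I genes were higher in DBA in 14 of 20 cases in room air, with 0 lower, and in 10 of 20 cases in hyperoxia, with 1 lower. Of all genes tested 21.5% were higher and 34.8% lower in room air, and 23.3% and 22.8% in hyperoxia. The higher genes of both exposures include H2-Q1, H2-Q10, H2-T-ps and H2-T3. These passed the filter on low values only through DBA, where they are high, so their part in the counts is no test. H2-Q5 had 11.3, 13.6, 9.31 and 6.95 TPM in DBA and 0.509, 1.28, 1.14 and 3.24 TPM in B6 in room air (log2 fold change 2.22 ± 0.273 SE, adjusted p = 8.61e-06), with no overlap. H2-T-ps had 7.21, 6.47, 6.50 and 6.72 TPM in DBA and 0.938, 0.822, 0.728 and 1.12 TPM in B6 (log2 fold change 2.02). H2-Q10, known as a secreted product of liver, had 5.19, 9.06, 4.39 and 3.25 TPM in DBA and 0.999, 0.500, 0.849 and 0.984 TPM in B6 (log2 fold change 1.76). None of these 3 overlapped between strains. H2-K2 had 13.5, 20.1, 8.65 and 11.6 TPM in DBA and 2.90, 3.37, 3.65 and 3.94 TPM in B6 (log2 fold change 1.64 ± 0.191 SE, adjusted p = 5.18e-06), and H2-T10, a ligand of gamma delta T cells, 4.89, 7.39, 5.46 and 4.63 TPM and 1.36, 1.35, 1.38 and 1.15 TPM (log2 fold change 1.5 ± 0.142 SE, adjusted p = 8.58e-07). H2-Q1 had 4.13, 5.88, 5.42 and 3.68 TPM in DBA and 0.852, 0.70, 1.05 and 1.08 TPM in B6 (log2 fold change 1.58). H2-Q6, which overlaps H2-Q8, had 10.8, 21.8, 9.94 and 6.70 TPM in DBA and 1.23, 2.77, 5.26 and 7.71 TPM in B6 (log2 fold change 1.41, adjusted p = 0.00447), with overlap. H2-T24 stood apart in hyperoxia, with 14.2, 23.4, 16.4 and 21.0 TPM in DBA and 4.15, 4.11 and 4.38 TPM in B6 (log2 fold change 1.90 ± 0.221 SE, adjusted p = 7.38e-06). H2-Q2 was the 1 lower gene in hyperoxia, with 4.48, 6.14, 3.64 and 6.35 TPM in DBA and 9.20, 7.04 and 10.9 TPM in B6 (log2 fold change -0.71, adjusted p = 0.0304). This call was lost in 6 of 12 alternative settings. The remaining higher genes in room air were H2-Q4, H2-Q7 with H2-Q9, H2-T3, H2-T24 and H2-M5, with log2 fold changes of 0.57 to 1.01; H2-Q7 and H2-Q9 lost their calls in 8 of 13 alternative settings. H2-Ke6 was higher in DBA in both exposures, with 52.1, 46.8, 55.0 and 50.0 TPM in DBA and 29.8, 34.0, 29.9 and 32.1 TPM in B6 in room air (log2 fold change 0.68) and 0.70 as the log2 fold change in hyperoxia. H2-T23, which encodes Qa-1, and H2-M3, which presents N-formylated peptides, passed in neither exposure.

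**Figure D3:**
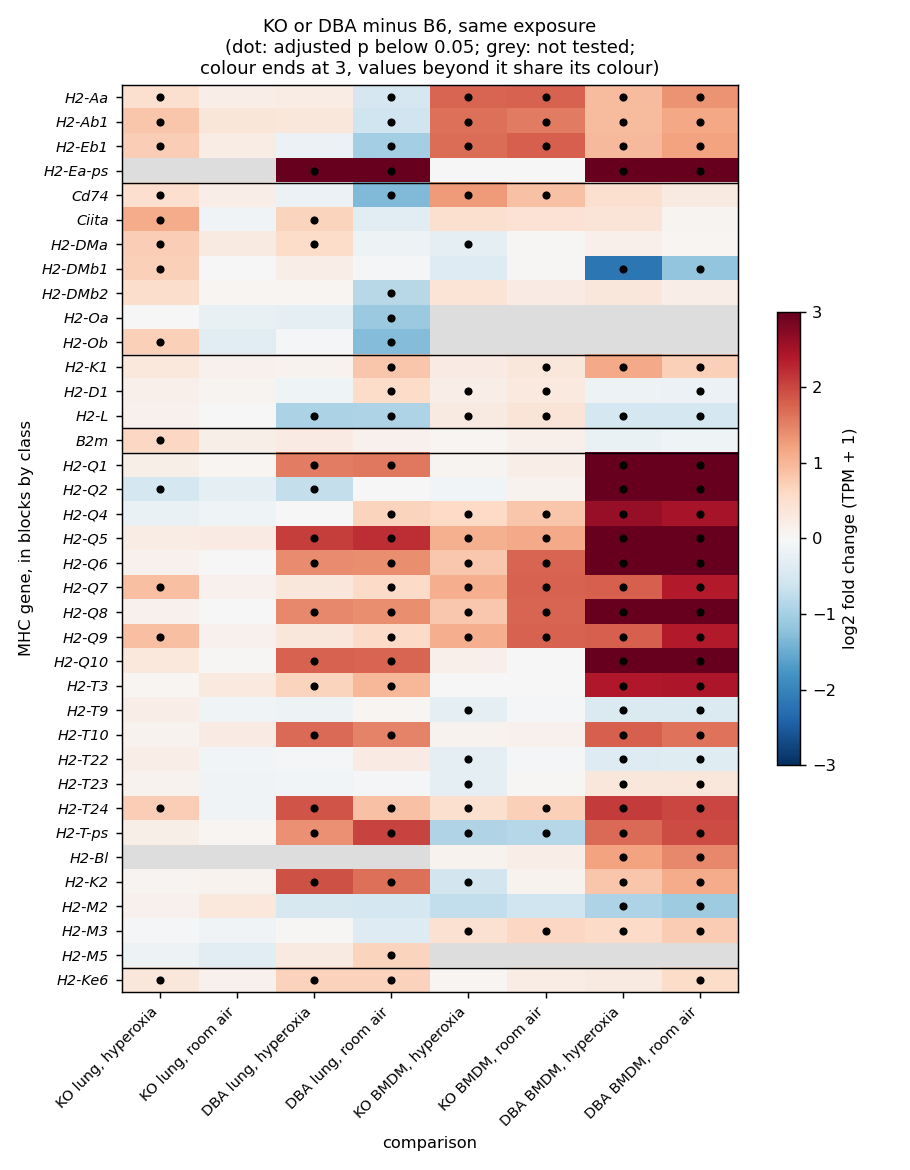
Differences from B6 in room air and hyperoxia, as log2 fold change of (TPM + 1), for the members (rows, in blocks by class) in lung and BMDM, for KO minus B6 and DBA minus B6 (columns); red is higher and blue lower than B6, a dot marks adjusted p below 0.05, grey marks genes not tested, and values beyond the scale take its end colour. Most H2-Q and H2-T rows are red with dots in the DBA columns of both tissues, and the KO columns of lung in room air hold no dot.

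In BMDM of all 3 genotypes the class II genes H2-Aa, H2-Ab1, H2-Eb1, Cd74, Ciita and H2-DMa were lower in hyperoxia, whereas H2-D1 was higher. The KO calls of Cd74 and H2-D1 were each lost in 5 of 9 alternative settings. Of 34 members tested 3 were higher and 10 lower in KO, 4 and 8 in DBA, and 8 and 7 in B6. The lower ones of B6 include H2-DMb2, which passed the filter on low values only through the room-air libraries. Its call was lost in 8 of 9 alternative settings. Without the members that passed in this way, 8 of 32 were higher and 6 lower in B6. Among all genes tested 6.88% were higher and 16.4% lower in KO, 5.73% and 13% in DBA, and 5.68% and 22.8% in B6. Quantile normalization made these splits even, with 11.5% higher and 11.9% lower in KO, 9.12% higher and 10.0% lower in DBA and 10.3% higher and 10.6% lower in B6. The median log2 difference of all genes without it was -0.084 in KO, -0.064 in DBA and -0.13 in B6, and the members had medians of -0.14, -0.016 and 0.0011. Macrophage markers summed to 3348 to 4391 TPM over all 12 libraries, and H2-Oa and H2-Ob, genes of B cells and dendritic cells, were below the filter.

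Ciita had 0.873 and 1.16 TPM in hyperoxia and 3.44 and 3.49 TPM in room air in KO BMDM (log2 fold change -1.15 ± 0.182 SE, adjusted p = 0.00199). In DBA it had 1.02 and 0.741 TPM and 2.60 and 2.40 TPM (log2 fold change -0.90 ± 0.182 SE, adjusted p = 0.00878), and in B6 0.496 and 0.396 TPM and 1.71 and 3.0 TPM (log2 fold change -1.19 ± 0.182 SE, adjusted p = 0.0016). The exposures did not overlap in any genotype. H2-Ab1 had 90.2 and 88.2 TPM in hyperoxia and 162 and 165 TPM in room air in KO (log2 fold change -0.87 ± 0.154 SE, adjusted p = 0.00346). In DBA it had 56.9 and 52.3 TPM and 137 and 116 TPM (log2 fold change -1.19 ± 0.154 SE, adjusted p = 0.001), and in B6 25.1 and 30.5 TPM and 46.0 and 66.5 TPM (log2 fold change -0.98 ± 0.154 SE, adjusted p = 0.00179). H2-Aa, H2-Eb1 and Cd74 fell in all 3 as well. H2-Aa had 156 and 157 TPM in hyperoxia and 281 and 294 TPM in room air in KO, 94.6 and 86.9 TPM and 237 and 197 TPM in DBA, and 42.6 and 50.2 TPM and 67.4 and 104 TPM in B6 (log2 fold changes -0.87, -1.24 and -0.84). H2-Eb1 had 62.2 and 62.5 TPM in hyperoxia and 117 and 121 TPM in room air in KO, 38.4 and 36.4 TPM and 87.8 and 71.5 TPM in DBA, and 18.6 and 18.7 TPM and 29.9 and 37.9 TPM in B6 (log2 fold changes -0.93, -1.06 and -0.82). Cd74 had 361 and 363 TPM in hyperoxia and 602 and 589 TPM in room air in KO, 215 and 199 TPM and 433 and 340.3 TPM in DBA, and 126 and 176 TPM and 257 and 401 TPM in B6 (log2 fold changes -0.72, -0.89 and -1.10). Ciita, H2-Ab1, H2-Aa, H2-Eb1, Cd74 and H2-DMa passed in each genotype at adjusted p below 0.05, and Cd74 in KO lost its call in 5 of 9 alternative settings.

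H2-DMa had 5.62 and 6.07 TPM in hyperoxia and 13.2 and 12.9 TPM in room air in KO, 8.85 and 7.52 TPM and 13.4 and 13.3 TPM in DBA, and 7.45 and 7.11 TPM and 12.2 and 13.2 TPM in B6 (log2 fold changes -1.04, -0.65 and -0.73). H2-DMb1 fell in DBA, with 4.86 and 2.92 TPM in hyperoxia and 13.0 and 8.15 TPM in room air (log2 fold change -1.24 ± 0.214 SE, adjusted p = 0.004), and in KO, with 14.6 and 16.5 TPM and 25.5 and 25.0 TPM (log2 fold change -0.67 ± 0.214 SE, adjusted p = 0.0493), where the call was lost in 7 of 9 alternative settings. It did not pass in B6, with 22.1 and 19.1 TPM and 23.2 and 26.5 TPM (adjusted p = 0.396). H2-Ea-ps, read in DBA alone, had 63.3 and 66.8 TPM in hyperoxia and 153 and 134 TPM in room air (log2 fold change -1.13 ± 0.098 SE, adjusted p = 0.000152), and was listed at 0 in all KO and B6 BMDM. Both chains of the E molecule were thus lower in hyperoxia in DBA.

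H2-D1 had 3859.7 and 3674 TPM in hyperoxia and 3089 and 3148 TPM in room air in KO (log2 fold change 0.27 ± 0.061 SE, adjusted p = 0.0108). In DBA it had 2999 and 2921 TPM and 2258 and 2189 TPM (log2 fold change 0.41 ± 0.061 SE, adjusted p = 0.00194), and in B6 3202 and 3347 TPM and 2562 and 2499 TPM (log2 fold change 0.37 ± 0.061 SE, adjusted p = 0.00216). The overlapping H2-L rose with it in each genotype, and after quantile normalization the KO call of H2-D1 was lost, as in 4 other of 9 alternative settings (log2 fold change 0.14, adjusted p = 0.119). H2-K1 rose in DBA, with 2005 and 1919 TPM in hyperoxia and 1549 and 1483 TPM in room air (log2 fold change 0.37 ± 0.099 SE, adjusted p = 0.0286), a call lost in 6 of 9 alternative settings, among them quantile normalization (log2 fold change 0.13, adjusted p = 0.31). It had 1085 and 1036 TPM and 1158 and 1156 TPM in KO, and 941 and 855 TPM and 1036 and 819 TPM in B6, where it did not pass (adjusted p = 0.404 and 0.813). B2m had 3953 and 3928 TPM in hyperoxia and 3999 and 4089 TPM in room air in KO, 3221 and 3324 TPM and 3160.0 and 3462 TPM in DBA, and 3923 and 3626 TPM and 3948 and 3320.4 TPM in B6. It passed in none of them (adjusted p = 0.809, 0.929 and 0.665).

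Several Qa genes rose in B6 BMDM, where 6 of 20 non-classical genes were higher and 0 lower. H2-Q7 had 6.69 and 5.26 TPM in hyperoxia and 3.80 and 2.19 TPM in room air (log2 fold change 0.83 ± 0.174 SE, adjusted p = 0.00725), H2-Q6 6.74 and 3.76 TPM and 3.02 and 1.56 TPM (log2 fold change 0.92 ± 0.232 SE, adjusted p = 0.0162), each with an overlapping partner that was also higher. The calls of H2-Q6 and its partner H2-Q8 were each lost in 4 of 9 alternative settings. H2-Q4 had 57.8 and 55.5 TPM in hyperoxia and 62.3 and 45.9 TPM in room air, with overlap, and was not called. H2-Q5 had 5.41 and 4.98 TPM in hyperoxia and 4.20 and 2.37 TPM in room air (log2 fold change 0.57), and in KO 12.4 and 11.5 TPM and 8.44 and 7.84 TPM (log2 fold change 0.51); these calls were lost in 5 and 6 of 9 alternative settings. H2-K2 rose in B6, with 39.7 and 41.8 TPM in hyperoxia and 28.6 and 30.6 TPM in room air (log2 fold change 0.45 ± 0.081 SE, adjusted p = 0.00348). In KO 3 of 20 non-classical genes fell: H2-T24 had 35.4 and 35.3 TPM in hyperoxia and 49.7 and 46.2 TPM in room air (log2 fold change -0.43), and H2-T22 with H2-T9 44.6 and 45.5 TPM and 57.8 and 58.9 TPM for H2-T22 (log2 fold change -0.37). In DBA 1 of 20 passed, H2-Q1, with 32.1 and 29.4 TPM in hyperoxia and 22.3 and 20.4 TPM in room air (log2 fold change 0.51 ± 0.103 SE, adjusted p = 0.00884). Of all genes tested 5.68% were higher and 22.8% lower in B6, 6.88% and 16.4% in KO, and 5.73% and 13% in DBA. The counts of lower genes in KO and of higher genes in DBA are near these shares.

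Interferon-pathway partners fell in BMDM, with 11 of 13 lower in KO, 7 of 13 in DBA and 8 of 13 in B6, and 0 higher. Irf1, an interferon-response transcription factor, had log2 fold changes of -0.77 in KO and -0.58 in DBA. Immunoproteasome genes were lower in 5 of 5, 2 of 5 and 3 of 5 cases. Rfx5, which binds the X box, fell in each genotype (-0.75, -0.55 and -0.64 on the log2 scale). Dendritic cell markers, of which 1 of 8 passed the filter, summed to 55.4 to 56.5 TPM in hyperoxia and 91.6 to 93 TPM in room air in KO, 54.5 to 55.7 TPM and 62.6 to 68.6 TPM in DBA, and 11.2 to 19.0 TPM and 18.5 to 36.0 TPM in B6, with Xcr1 at 0 in KO hyperoxia and in DBA room air. B cell markers summed to at most 5.82 TPM in any library, with Pax5 at 0 in both DBA groups and in B6 room air. Their part in the result was not tested. With only its own 4 libraries in the fit B6 had 0 calls and 12 members at an unadjusted p below 0.05, and without the filter on low values 9 calls. KO had 7 or 8 calls when any 1 of its 4 libraries was left out, and 8 without the filter.

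Few members had an oxygen response that differed between genotypes in BMDM. For KO minus B6 the interaction was negative for 1 member, H2-K2 (log2 fold change -0.66 ± 0.115 SE, adjusted p = 0.0304), and positive for 0, where 0.795% of all genes were negative and 0.657% positive. For DBA minus B6 it was negative for 1, H2-Ea-ps, and positive for 0, where 0.552% and 0.422% of all genes were called. H2-Ea-ps is listed at 0 in B6 and passed the filter only through DBA, so its value (log2 fold change -1.13) is the oxygen difference of DBA and compares no responses. The call of H2-K2 was lost in 10 of 13 alternative settings. Members with an unadjusted p below 0.05 numbered 9 and 7. With the replicate number as a block each count was 5, and both calls were lost in the fit restricted to the groups compared or with a pseudocount of 0.1 TPM. The class II interactions did not pass for Ciita (adjusted p = 0.968 for KO and 0.6 for DBA) or H2-Ab1 (adjusted p = 0.866 and 0.646).

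**Figure D4:**
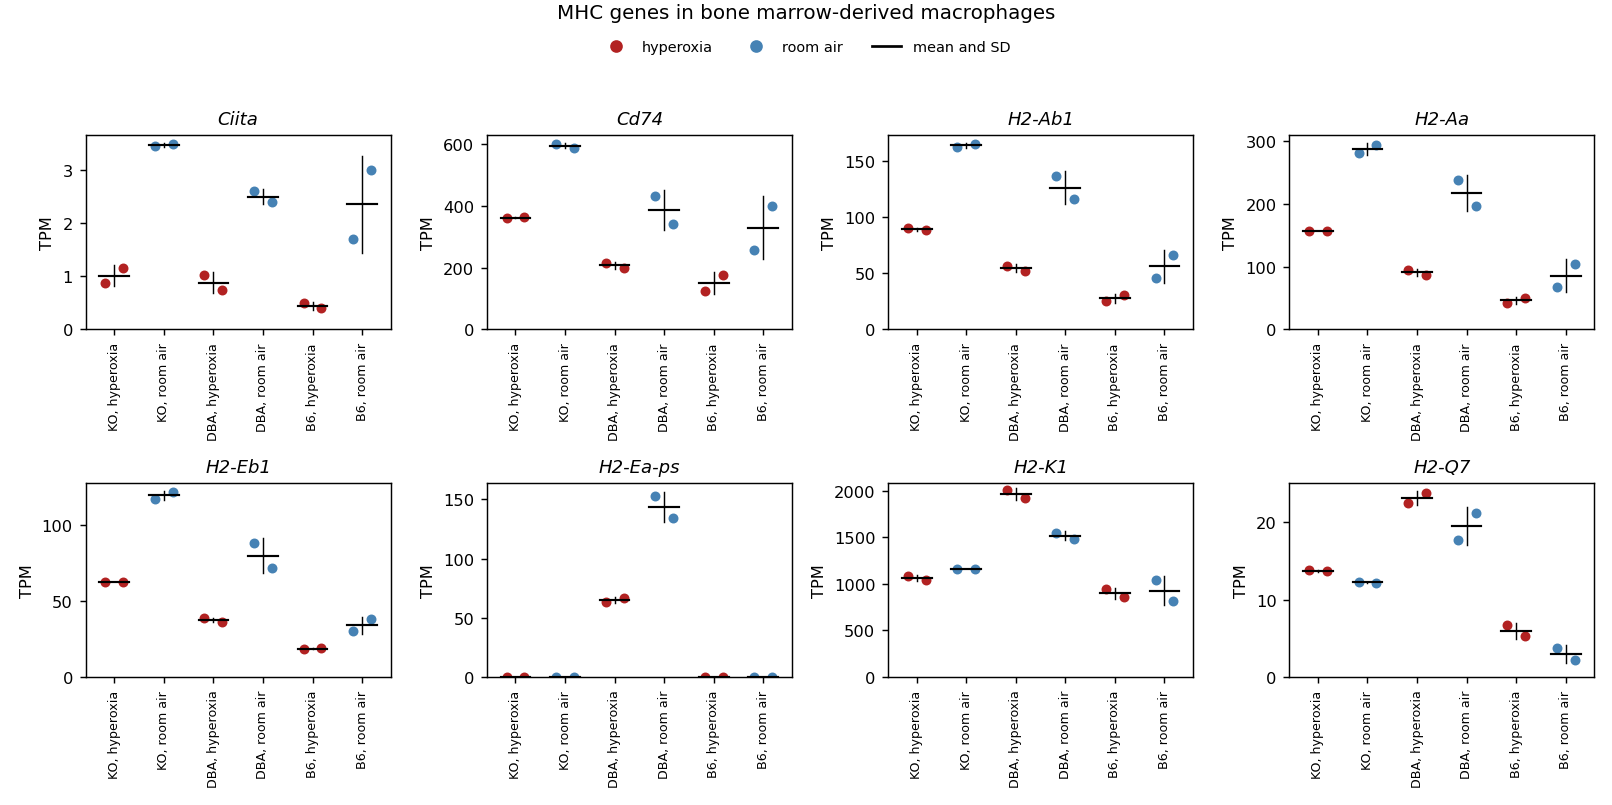
Levels of 8 MHC genes in bone marrow-derived macrophages, in TPM, 1 panel per gene; points are libraries, coloured by exposure, and black lines show the group mean and SD for KO, DBA and B6 with hyperoxia left of room air. H2-Ab1 lay at 90.2 and 88.2 TPM in hyperoxia and 162 and 165 TPM in room air in KO, and at 25.1 and 30.5 TPM and 46.0 and 66.5 TPM in B6.

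Levels, in contrast to responses, differed between genotypes in BMDM for many members and for many of all genes tested. For KO minus B6 in room air the share of members called, in both directions together, was near that of all genes. KO BMDM had more of the class II chains than B6 BMDM in both exposures. Of 34 members tested 15 were higher and 1 lower in KO in room air, where 33.9% of all genes were higher and 15.3% lower (23.3% higher and 22% lower after quantile normalization). In hyperoxia 14 were higher and 6 lower, where 38.1% and 12.2% of all genes were (22.8% higher and 21.4% lower after quantile normalization). Median log2 differences were 0.23 over the members and 0.14 over all genes in room air, and 0.18 and 0.19 in hyperoxia. In room air H2-Aa stood at 281 and 294 TPM in KO and 67.4 and 104 TPM in B6 (log2 fold change 1.77 ± 0.171 SE, adjusted p = 3.23e-05). H2-Eb1 stood at 117 and 121 TPM and 29.9 and 37.9 TPM (log2 fold change 1.79 ± 0.113 SE, adjusted p = 2.28e-06), and H2-Ab1 at 162 and 165 TPM and 46.0 and 66.5 TPM (log2 fold change 1.55 ± 0.154 SE, adjusted p = 3.82e-05). Cd74 stood at 602 and 589 TPM in KO and 257 and 401 TPM in B6 (log2 fold change 0.89 ± 0.205 SE, adjusted p = 0.00533). None of these genes overlapped between the genotypes in either exposure, and in hyperoxia their log2 fold changes were 1.74 for H2-Aa, 1.68 for H2-Eb1, 1.65 for H2-Ab1 and 1.28 for Cd74. Ciita did not pass in either (adjusted p = 0.0705 in room air and 0.0528 in hyperoxia).

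Of the class I genes H2-Q7 had 12.3 and 12.2 TPM in KO and 3.80 and 2.19 TPM in B6 in room air (log2 fold change 1.76 ± 0.174 SE, adjusted p = 3.74e-05), and H2-Q6 had 10.3 and 9.27 TPM and 3.02 and 1.56 TPM (log2 fold change 1.75 ± 0.232 SE, adjusted p = 0.000217). H2-Q5 (1.13), H2-Q4 (0.83), H2-T24 (0.72) and H2-M3 (0.62) were also higher in KO on the log2 scale. H2-M3 had 43.6 and 41.4 TPM in KO and 32.2 and 23.0 TPM in B6. H2-D1 (0.30), H2-L (0.40) and H2-K1 (0.33) were higher by less, and the call of H2-K1 was lost in 5 of 9 alternative settings. H2-T-ps was the 1 lower gene in room air, with 1.97 and 1.54 TPM in KO and 5.28 and 2.96 TPM in B6 (log2 fold change -0.86 ± 0.224 SE, adjusted p = 0.0101). This call was lost in 4 of 9 alternative settings. In hyperoxia H2-K2 was lower in KO as well, with 29.6 and 25.1 TPM in KO and 39.7 and 41.8 TPM in B6 (log2 fold change -0.56), and H2-T22, H2-T9, H2-T23 and H2-DMa had log2 fold changes of -0.29 to -0.26. The calls of H2-DMa and H2-T23 were lost in 5 and 6 of 9 alternative settings. The KO columns carry a date code that differs from that of the B6 columns, so genotype and date code cannot be told apart in BMDM. The sex marks differ too, with MF in all KO and DBA columns and both MF and F in each B6 group. Fibroblast markers, 4 of 4 higher in KO, summed to 85.5 to 107 TPM in KO and 0.428 to 0.611 TPM in B6 in room air. Dendritic cell markers, all but 1 of which were below the filter, summed to 91.6 to 93 TPM and 18.5 to 36.0 TPM. The part of these markers in the result was not tested. Of the partner genes March1, a ubiquitin ligase of class II molecules, was higher in KO (log2 fold change 1.56) and the protease Ctsl lower (-1.18), and 10 of 13 interferon genes were higher.

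Members differed most in number between DBA and B6 BMDM. Of 34 members tested 23 were higher and 6 lower in DBA in room air, where 40.7% of all genes were higher and 16.2% lower (26.4% higher and 25.0% lower after quantile normalization). In hyperoxia 22 were higher and 5 lower, where 46.6% and 14% of all genes were (26.1% higher and 25.7% lower after quantile normalization). Median log2 differences were 1.19 over the members and 0.19 over all genes in room air, and 0.96 and 0.26 in hyperoxia. Of the 34, H2-Ea-ps, H2-Bl, H2-DMb2, H2-Q1, H2-Q2, H2-Q10 and H2-T3 would not have passed the filter on low values without the DBA libraries, so their strain differences are described without a p; of the other 27, 17 were higher and 6 lower in room air, and 16 and 5 in hyperoxia. H2-Ea-ps had 153 and 134 TPM in DBA in room air and was listed at 0 in B6. H2-Q2 had 38.7 and 41.9 TPM in DBA and 0.318 and 0.348 TPM in B6 (log2 fold change 4.95). H2-Q5 had 123 and 115 TPM and 4.20 and 2.37 TPM (log2 fold change 4.84 ± 0.161 SE, adjusted p = 2.33e-08), and H2-Q10 32.7 and 26.4 TPM and 0.533 and 0.471 TPM (log2 fold change 4.34). None of these genes overlapped between strains.

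H2-Q6 had 64.3 and 62.2 TPM in DBA and 3.02 and 1.56 TPM in B6 in room air (log2 fold change 4.32 ± 0.232 SE, adjusted p = 5.33e-07), and H2-Q1 had 22.3 and 20.4 TPM and 0.668 and 0.709 TPM (log2 fold change 3.72). H2-Q4 had 296 and 305 TPM in DBA and 62.3 and 45.9 TPM in B6 (log2 fold change 2.47 ± 0.111 SE, adjusted p = 1.73e-07). H2-Q7 had 17.8 and 21.2 TPM in DBA and 3.80 and 2.19 TPM in B6 (log2 fold change 2.38). H2-T3 had 4.68 and 4.23 TPM in DBA and 0 and 0.0160 TPM in B6, and H2-Bl had 1.65 and 1.91 TPM and 0 and 0.0600 TPM. H2-T24 had 109 and 127 TPM in DBA and 29.0 and 28.4 TPM in B6 (log2 fold change 2.00). H2-T-ps had 18.1 and 18.7 TPM in DBA and 5.28 and 2.96 TPM in B6 (log2 fold change 1.96), H2-T10 10.7 and 9.14 TPM and 2.25 and 2.79 TPM (log2 fold change 1.63), and H2-K2 66.3 and 63.8 TPM and 28.6 and 30.6 TPM (log2 fold change 1.11). H2-M3 (0.76) and H2-T23 (0.34) were higher by less on that scale. H2-K1 had 1549 and 1483 TPM in DBA and 1036 and 819 TPM in B6 (log2 fold change 0.72 ± 0.099 SE, adjusted p = 0.000218), and in hyperoxia its log2 fold change was 1.13. H2-D1 was lower in DBA in room air (2258 and 2189 TPM in DBA and 2562 and 2499 TPM in B6, log2 fold change -0.19 ± 0.061 SE, adjusted p = 0.0246), and this turned to 0.064 after quantile normalization. H2-L (-0.53), H2-T9 (-0.42), H2-T22 (-0.37) and H2-M2 (-1.06) were lower in DBA on the log2 scale. B2m passed in neither exposure (adjusted p = 0.244 in room air and 0.0745 in hyperoxia).

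Class II chains were higher in DBA than in B6 BMDM, as they were in KO. H2-Aa had 237 and 197 TPM in DBA and 67.4 and 104 TPM in B6 in room air (log2 fold change 1.36 ± 0.171 SE, adjusted p = 0.00012), H2-Eb1 87.8 and 71.5 TPM and 29.9 and 37.9 TPM (log2 fold change 1.21 ± 0.113 SE, adjusted p = 1.83e-05), and H2-Ab1 137 and 116 TPM and 46.0 and 66.5 TPM (log2 fold change 1.17 ± 0.154 SE, adjusted p = 0.00016). These genes also passed in hyperoxia, with log2 fold changes of 0.96, 0.96 and 0.95. H2-DMb1 was lower in DBA, with 13.0 and 8.15 TPM in DBA and 23.2 and 26.5 TPM in B6 in room air (log2 fold change -1.19 ± 0.214 SE, adjusted p = 0.00109) and 4.86 and 2.92 TPM and 22.1 and 19.1 TPM in hyperoxia (log2 fold change -2.17 ± 0.214 SE, adjusted p = 2.21e-05). Cd74 did not pass (adjusted p = 0.306 in room air and 0.0687 in hyperoxia), nor did Ciita (adjusted p = 0.704 and 0.0991). The KO and DBA comparisons share the B6 libraries, and the DBA columns carry the same date code as the KO columns. Fibroblast markers summed to 74.8 to 88.5 TPM in DBA and 0.428 to 0.611 TPM in B6 in room air, with 4 of 4 higher; their part in the result was not tested.

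**Figure D5:**
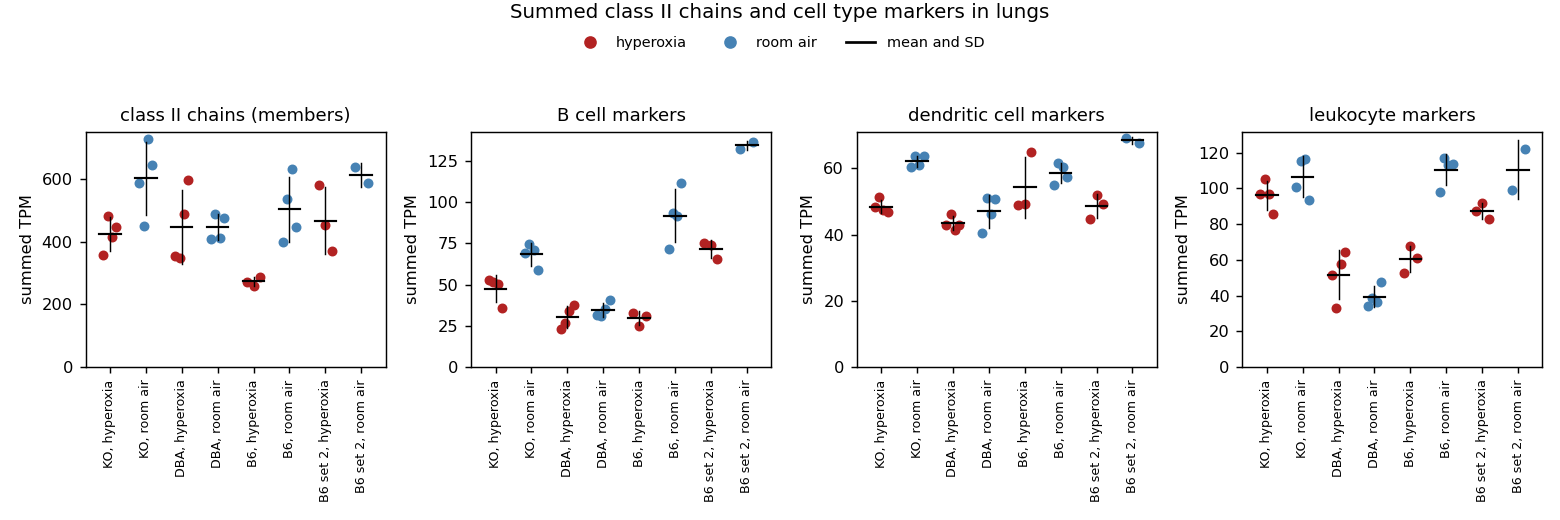
Summed TPM in every lung library of the class II chains and of B cell, dendritic cell and leukocyte markers, 1 panel per list; points are libraries, coloured by exposure, and black lines show the group mean and SD. B cell markers lay at 25.0 to 32.8 TPM in B6 hyperoxia lungs and 71.4 to 111 TPM in B6 room-air lungs.

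Binding of the transcription factor p53, mapped by chromatin immunoprecipitation, was set against the members' listed starts. Each of the authors' 10 peak lists pools the replicates of a group, so no replicate comparison is possible; the score is the authors' own. Within 10 kb of a listed start 3 of 47 members (6.38%) and 4.77% of all 24940 genes had a peak in B6 hyperoxia BMDM, whose list holds 3500 peaks. In B6 room-air BMDM, with 4107 peaks, it was 1 member (2.13%) and 6.34% of all genes. In KO BMDM 0 members had one, where 1.84% of all genes did in hyperoxia and 1.46% in room air, from 1320 and 1263 peaks; the titles of these KO samples name the knockout while their genotype label reads C57BL/6J, and they are called KO after the titles. In the 6 lung lists of 134 to 255 peaks 0 members and 0.225% to 0.405% of all genes had one. In B6 hyperoxia BMDM a peak at chr16:10489092-10489292 (build mm10) lay 9120 bases downstream of the start of Ciita with a score of 14. Peaks at chr17:37485383-37485583 (score 12) and chr17:36992810-36993010 (score 10) lay 1929 bases upstream of H2-M2 and 3406 bases upstream of H2-M5. In B6 room-air BMDM a peak at chr17:34323685-34323885 (score 13) lay 1890 bases upstream of H2-Eb2, which was at 0 in B6 BMDM. The highest-scoring peak within 50 kb of a member start, at chr17:36100238-36100438 in B6 hyperoxia BMDM, lay 11338 bases from the start of H2-T-ps with a score of 61, and 95.8% of that list's peaks scored as much or less. A room-air peak with a score of 14 lay at chr17:36100242-36100442. No member had a peak within 1 kb of its start in any list.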

How the data were processed

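The 4 expression tables hold TPM, computed by the authors for 1 RefSeq transcript per gene symbol; the submitters' processing notes name STAR, HOMER and build mm10. The 10 peak lists hold a score per peak, HOMER's normalized tag count per the file headers, for peaks of 200 bases called on pooled tag directories, with cutoffs of 4-fold over input and surroundings and a false discovery rate of 0.001; the submitters' notes also name Bowtie2. KO BMDM peaks were called against B6 input directories per the file headers. The sources used here give no versions of these tools.

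Columns were matched to groups by genotype and exposure in their names. Depth was estimated from the step between TPM values times transcript length. TPM were transformed to log2(TPM + 1), with a pseudocount of 1 TPM, and a gene was kept if the number of libraries reaching 1 TPM was no smaller than the smallest group. This gave 15614 genes for KO and B6 lungs, 15623 for DBA and B6 lungs, 14636 for set 2 and 12320 for BMDM. Tables were modelled separately in limma 3.58.1 (variance trend, 1 mean per group, all groups) in R 4.3.3. P-values were adjusted by Benjamini-Hochberg across every gene kept, separately for the 19 comparisons, with calls at adjusted p below 0.05. The steps were tested on simulated data. The members, gene lists and tests were chosen with earlier results of these data known. All members are accounted for; values per library are given for the classical chains, B2m, Cd74, Ciita, H2-Ea-ps and most members called in at least 2 comparisons of a table, the others by count or range, and of partner lists at most 4 called genes per comparison, and a partner gene that would have been named is not reported here. Alternatives were quantile normalization, a pseudocount of 0.1 TPM, no filter, only the compared groups in the fit, each library left out, date code or sex mark as a term or subset, and the replicate number as a block. Peaks were assigned to starts within 10 kb. Promoters came from the RefSeq tables.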

Additional observations from a re-analysis of the deposited data

Results flagged for a closer look

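Interactions between genotype and oxygen were called for 17 genes and comparisons, each tested directly in limma. In the lungs of KO minus B6 they were 1.22 for Ciita, 1.02 for H2-Ob, 0.84 for H2-T24 and 0.70 for H2-DMb1, all on the log2 scale. In the lungs of DBA minus B6 they were 1.27 for H2-Ob, 1.16 for Cd74, 1.02 for H2-T24, 1.01 for Ciita, 0.93 for H2-Ab1, 0.85 for H2-Eb1 and 0.71 for H2-Aa. They were -0.75 for H2-K1, -0.69 for H2-Q4, -0.68 for H2-D1 and -0.65 for H2-T-ps in the same comparison. In BMDM they were -0.66 for H2-K2 in KO minus B6 and -1.13 for H2-Ea-ps in DBA minus B6. The last compares no responses, since H2-Ea-ps is listed at 0 in B6, and H2-T-ps passed the filter on low values only through DBA.

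Single values were compared in 164 combinations of a member and a group of 4 libraries, and 12 held a library far from the other 3. Chance marks about 1 combination in 20. The combinations share libraries and some members overlap, so they are not independent. In DBA hyperoxia lungs 1 library stood apart for 4 genes, with 12.7 TPM of H2-K2, 153 TPM of H2-L and 62.0 TPM of H2-T23 above the others and 1.43 TPM of H2-DMb2 below them. In KO hyperoxia lungs 1 library was high, with 293 TPM of H2-D1, 317 TPM of H2-L, which overlaps it, and 14.1 TPM of H2-DMa. Another KO hyperoxia library was low with 103 TPM of H2-Ab1, and a further one with 0.617 TPM of H2-Q5. Of the DBA room-air lungs 1 had 31.0 TPM of H2-T22 and another 33.8 TPM of H2-T24, both high. Of the B6 room-air lungs 1 had 1.15 TPM of H2-T10, which was low.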

How the results depend on the processing

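Of 239 calls of single members, 223 stood after quantile normalization, and H2-D1 in room-air BMDM of DBA against B6 turned to 0.064. With the date code as a term, the KO minus B6 contrast of hyperoxia lungs had 2 members called and signs turned for B2m (-0.13), H2-Aa (-0.11), H2-Eb1 (-0.074), H2-Q7 (-0.34) and H2-Q9 (-0.34); the lung interaction of KO and B6 had 2, as with males alone, where that of DBA and B6 had 6. That term could not be fitted for the contrasts of DBA with B6 lungs. The earlier DBA date code alone (added after the data were seen) left 0 calls of the oxygen response in DBA lungs and the later 6. Without the filter on low values there were 3 in KO lungs, 0 in set 2, 9 in KO minus B6 hyperoxia lungs, 9 in B6 BMDM, 8 in KO BMDM and 0 in the KO interaction in BMDM. With only the compared groups there were 0 calls in B6 BMDM and in both BMDM interactions, which also had 0 with a pseudocount of 0.1 TPM. The replicate number as a block gave 5 in each of these interactions and moved no other count by more than 1.5 times. Numbers were not used as pairs, since correlations of same-numbered libraries were 0.38 in B6, -0.051 in KO and 0.079 in DBA BMDM, and 0.047 and 0.0083 in set 2. The same-numbered B6 BMDM libraries also share their sex mark, MF or F. No paired analysis was possible for the other lungs because the numbers in their columns restart within a date code or sex mark and could not be tied to the replicates of the titles. Leaving out 1 library gave 0 to 1 calls in set 2, 9 to 15 in KO minus B6 hyperoxia lungs, 7 to 8 in KO BMDM, and 0 to 1 and 0 to 2 in the BMDM interactions of KO and DBA. A peak distance of 1 kb left 0 members in both B6 BMDM lists, scores above the list's median 1 in B6 hyperoxia BMDM, and 50 kb gave 6 in B6 hyperoxia and 16 in B6 room-air BMDM, 1 in B6 room-air lung and 1 in KO hyperoxia BMDM. The cause of these shifts was not tested. Depth limits genes below 1 TPM most, and 2 libraries a group limit BMDM.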

Other observations

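Of the members higher in DBA than in B6 BMDM, some were also higher in KO, as given above, and others lay low in both KO and B6. In room air H2-Q2 had 0.621 and 0.259 TPM in KO and 0.318 and 0.348 TPM in B6, H2-Q10 0.589 and 0.444 TPM and 0.533 and 0.471 TPM, and H2-Q1 0.902 and 0.973 TPM and 0.668 and 0.709 TPM. H2-T3 was listed at 0 in all KO libraries. These 4 genes passed the filter on low values only through DBA, so their KO and B6 values are given without a test. H2-T10 had 2.68 and 3.0 TPM in KO and 2.25 and 2.79 TPM in B6 (adjusted p = 0.39 in limma). In lung H2-Q2 had 7.36, 10.3, 6.37 and 3.61 TPM in DBA and 7.85, 6.29, 5.27 and 7.47 TPM in B6 in room air. Tables of lung and BMDM were scaled separately and were not tested against each other.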
